A study of Homo sapiens with 24 samples.

Results

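The 32 genes described here encode enzymes of cholesterol and fatty acid synthesis, the SREBP regulators of these pathways and a single sterol carrier. They were chosen by name, as rows of a table of 58721 genes, and no measured value is part of the rule. Earlier results of these data were known when they were chosen. They comprise 7 enzymes of the mevalonate branch (ACAT2, HMGCS1, MVK, PMVK, MVD, IDI1 and FDPS), 11 enzymes from squalene to cholesterol (FDFT1, SQLE, LSS, CYP51A1, TM7SF2, MSMO1, NSDHL, HSD17B7, EBP, SC5D and DHCR7), 4 regulators (SREBF1, SREBF2, SCAP and INSIG1), 9 genes of acetyl-CoA supply and fatty acid synthesis (ACLY, ACSS2, ACACA, FASN, ELOVL6, SCD, FADS1, FADS2 and ACSL3) and the sterol carrier STARD4. They were measured by 3′ RNA-seq in bladder cancer cell lines of contrasting subtype, RT112 (luminal papillary, LumP, grown in RPMI) and SCaBER (basal/squamous, Ba/Sq, grown in DMEM). Each line received a control siRNA (siControl.2, here siControl), siZBED2-1, siZBED2-2, siFOXA1-1 (here siFOXA1), siFOXA1 with siZBED2-1, or siFOXA1 with siZBED2-2, with 2 libraries per treatment and 24 in all. FOXA1 is a forkhead factor of luminal urothelial cells and ZBED2 a zinc finger factor, and the knock-downs asked what each factor contributes to the transcriptome of either subtype. A single FOXA1 siRNA was used, so loss of FOXA1 and other actions of that siRNA cannot be told apart, and medium and line cannot be told apart either. The study describes the knock-downs as short-term, and the hour at which the RNA of these libraries was taken is not given in the sources used here.

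Cholesterol is built from acetyl-CoA through mevalonate, isoprenoid diphosphates and squalene, and fatty acids from the same acetyl-CoA through malonyl-CoA, followed by elongation and desaturation. Both routes are driven by the SREBP transcription factors, which are made as precursors in the endoplasmic reticulum and are carried by SCAP to the Golgi for cleavage when sterols run low, while INSIG1 holds SCAP back when sterols are plentiful. The SREBF2 product acts mainly on sterol genes and a SREBF1 product mainly on fatty acid genes, so genes of a route often move together, and growing epithelial and tumour cells draw on both routes for membranes.

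The 250 bases before the annotated start of 5 members are shown as context for the genes the results turn on, namely SREBF2, the sterol genes FDPS and MSMO1, the sterol sensor INSIG1 and the desaturase FADS1. They were taken from RefSeq on GRCh38.p14, which held a promoter for 28 of the 32 members and none for ACAT2, FDFT1, SQLE and FASN. Capitals mark matches, on either strand, to the sterol response element TCACNCCAC, the CCAAT box (ATTGG where it lies on the other strand) and the E-box CACGTG, and no marked matches overlap in the 5 sequences. They read 5′ to 3′ on the strand of the gene and lie at chr22:41832855-41833104, plus strand (SREBF2), chr1:155308616-155308865, plus strand (FDPS), chr4:165327419-165327668, plus strand (MSMO1), chr7:155297628-155297877, plus strand (INSIG1) and chr11:61817004-61817253, minus strand (FADS1).
SREBF2: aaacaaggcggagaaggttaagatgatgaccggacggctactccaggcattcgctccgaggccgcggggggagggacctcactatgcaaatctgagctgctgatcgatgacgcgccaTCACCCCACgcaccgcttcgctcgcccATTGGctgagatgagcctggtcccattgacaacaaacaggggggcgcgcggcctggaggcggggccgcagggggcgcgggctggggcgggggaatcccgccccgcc
FDPS: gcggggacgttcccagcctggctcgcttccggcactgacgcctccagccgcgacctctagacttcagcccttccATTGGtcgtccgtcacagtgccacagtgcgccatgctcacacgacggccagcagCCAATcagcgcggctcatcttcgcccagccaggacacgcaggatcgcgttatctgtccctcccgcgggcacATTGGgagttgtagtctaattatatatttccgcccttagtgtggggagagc
MSMO1: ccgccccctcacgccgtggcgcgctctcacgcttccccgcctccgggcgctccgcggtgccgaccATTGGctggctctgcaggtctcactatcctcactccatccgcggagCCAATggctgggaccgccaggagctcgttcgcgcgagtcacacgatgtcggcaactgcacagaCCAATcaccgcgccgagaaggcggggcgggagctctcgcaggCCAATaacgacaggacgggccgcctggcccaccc
INSIG1: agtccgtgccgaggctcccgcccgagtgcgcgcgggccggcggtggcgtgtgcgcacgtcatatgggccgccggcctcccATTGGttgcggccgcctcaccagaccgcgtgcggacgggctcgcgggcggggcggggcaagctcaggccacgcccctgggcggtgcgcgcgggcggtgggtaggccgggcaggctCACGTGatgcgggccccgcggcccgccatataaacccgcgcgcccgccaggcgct
FADS1: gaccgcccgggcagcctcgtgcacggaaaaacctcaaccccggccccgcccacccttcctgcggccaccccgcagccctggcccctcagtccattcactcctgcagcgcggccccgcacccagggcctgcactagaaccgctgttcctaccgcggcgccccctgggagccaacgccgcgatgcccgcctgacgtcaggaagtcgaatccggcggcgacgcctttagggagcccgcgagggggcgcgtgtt
The sterol response element was matched in 1 of the 28 member promoters, that of SREBF2, with its first base at -133 from the gene start, and in 0.875% of 27305 RefSeq promoters of the same length. A CCAAT box was matched in 19 of 28 members (67.9%, against 33% of all promoters), with 3 copies in FDPS, 4 in MSMO1 and 1 in INSIG1. The E-box was matched in 3 of 28 (10.7%, against 6.49%), namely SC5D, SCAP and INSIG1, and the FADS1 window held none of these motifs.

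Total counts were between 4425404 and 6119210 reads per library, and gene levels are given as CPM, reads scaled to a common library size. A gene with no read could still have had up to 3, which equal 0.479 to 0.679 CPM, a limit that covers counting error only. The FOXA1 transcript was measured first because it checks the labels: in RT112 it had 192 and 225 reads under siControl and 34 and 44 under siFOXA1 (log2 fold change -2.36, SE 0.38, adjusted p = 5.68e-05), and in SCaBER, where it was low from the start, 20 and 28 under siControl and 4 and 6 under siFOXA1 (log2 fold change -2.09, SE 1.23, adjusted p = 0.272), so the knock-down did not pass the test there. In SCaBER cells that also carried a ZBED2 siRNA it did (log2 fold change -3.23, SE 1.05, adjusted p = 0.0429), from few reads. Without siFOXA1 these cells had 14 and 1 FOXA1 reads under siZBED2-1 and 25 and 20 under siZBED2-2. The double knock-downs had 0 and 1 with siZBED2-1 and 3 and 2 with siZBED2-2, so the groups overlapped. ZBED2 had 101 and 92 reads in RT112 under siControl, 12 and 0 under siZBED2-1 and 38 and 36 under siZBED2-2. In SCaBER it had 101 and 96 under siControl, 12 and 40 under siZBED2-1 and 48 and 100 under siZBED2-2, so the second siZBED2-2 library of SCaBER kept close to the control number of reads. Against siControl the fall of ZBED2 passed the test for siZBED2-1 in both lines (adjusted p = 0.00624 in RT112 and 0.00848 in SCaBER) and for siZBED2-2 in neither (0.903 and 0.844). In RT112 ZBED2 itself had 27 and 7 reads under siFOXA1 (log2 fold change -2.48, SE 0.84, adjusted p = 0.0325). All 6 epithelial markers were above that limit in both lines. Luminal markers summed to 813 to 1406 CPM in RT112 and 122 to 184 in SCaBER, where UPK1A, UPK3A and KRT20 were at 0 throughout, and basal markers to 505 to 990 CPM in RT112 and 3353 to 5389 in SCaBER. Fibroblast markers summed to 107 to 186 CPM in RT112 and 16.8 to 45.1 in SCaBER, with COL3A1 at 0 throughout, and leukocyte, endothelial and adipocyte or hepatocyte markers to at most 2.57, 5.70 and 2.22 CPM in any library. The mitochondrial genome took 8.22 to 17.8% of the counts in the 6 RT112 libraries without siFOXA1 and 18.6 to 22.7% in the 6 with it, and the ranges in SCaBER, 9.55 to 12.0% and 9.29 to 12.9%, overlapped. The part of this shift in the RT112 results was not tested. In RNA of a whole culture, fewer cells of a kind and less RNA per cell cannot be told apart.

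Under siControl both lines held transcripts of nearly the whole route. By mean CPM, 12 members were at 100 or more in RT112 and 13 in SCaBER, 13 and 15 lay between 10 and 100, and 7 and 4 were under 10. Because reads come from the 3′ end, CPM counts transcripts largely irrespective of their length. SCD, which introduces the first double bond into saturated fatty acids, was the most abundant member in RT112 at 634 and 813 CPM, and in SCaBER the most abundant were HMGCS1, the synthase that commits acetyl-CoA to the mevalonate route, at 348 and 351 CPM, SCD at 312 and 363 and DHCR7, a last-step sterol reductase, at 324 and 337. The SCD libraries spanned the levels of the other two, so these SCaBER levels have no clear order. LSS, which closes the sterol rings, and CYP51A1, which removes a methyl group from lanosterol, had at most 6 and 10 reads in any library and were listed at 0 in most. Whether this comes from their level or from the counting was not tested. Neither could be tested in either line, nor could FADS2, the delta-6 desaturase, in RT112, where it had at most 10 reads. FADS1, the delta-5 desaturase, and FADS2 lie on opposite strands of chromosome 11 and their annotated spans share 801 bases at FADS1's start (ENSG00000149485, chr11:61799627-61817003 and ENSG00000134824, chr11:61816203-61867354 on GRCh38.p14), so reads of that stretch can be assigned to a gene only where counting used the strand.

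RT112 and SCaBER differed at rest in 17 of the 30 members tested, 6 higher and 11 lower in RT112, against 33.6% of all genes (16.4% higher and 17.2% lower). By role, 2 of 7 mevalonate genes, 4 of 9 from squalene to cholesterol, 4 of 9 fatty acid genes and STARD4 were lower. HMGCS1 stood at 107 and 118 CPM in RT112 and 348 and 351 in SCaBER (log2 fold change -1.62, SE 0.16, adjusted p = 2.73e-10). NSDHL, DHCR7, MSMO1, HSD17B7 and FDPS were lower as well, with log2 fold changes from -1.40 to -0.62. STARD4, which moves sterols between membranes, was at 2.19 and 0.366 CPM in RT112, near the limit set by counting, and at 32.4 and 24.3 in SCaBER (log2 fold change -4.50, SE 0.54, adjusted p = 3.60e-08), a value that ranged from -6.16 to -3.67 with a library left out, so its size is uncertain. The fatty acid desaturases FADS1 and FADS2 were lower in RT112 too, FADS1 at 31.6 and 64.3 against 202 and 228 (log2 fold change -2.14, SE 0.29, adjusted p = 2.55e-07) and FADS2, from few reads in RT112, with a log2 fold change that ranged from -4.63 to -3.82 with a library left out, and so were ELOVL6, a fatty acid elongase, and ACLY, the citrate-cleaving source of cytosolic acetyl-CoA.
Higher in RT112 were SREBF1 at 121 and 109 against 25.6 and 39.8 CPM (log2 fold change 1.83, SE 0.21, adjusted p = 9.56e-09), SCD (1.12, SE 0.15, adjusted p = 4.49e-07) and TM7SF2, a sterol reductase (1.44, SE 0.25, adjusted p = 2.07e-05). More weakly higher were FASN, the fatty acid synthase, ACSL3, which activates fatty acids for lipid droplets, and PMVK, the phosphomevalonate kinase. SREBF2 did not differ detectably, at 66.9 and 58.8 against 60.9 and 69.7 CPM (-0.04, SE 0.21, adjusted p = 0.910). The call of PMVK was lost without the second siControl library of either line, that of HSD17B7 without the second of SCaBER or the first of RT112, that of ACLY without the first of either line, and that of ACSL3 without the first of SCaBER or the second of RT112.

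**Figure D1:**
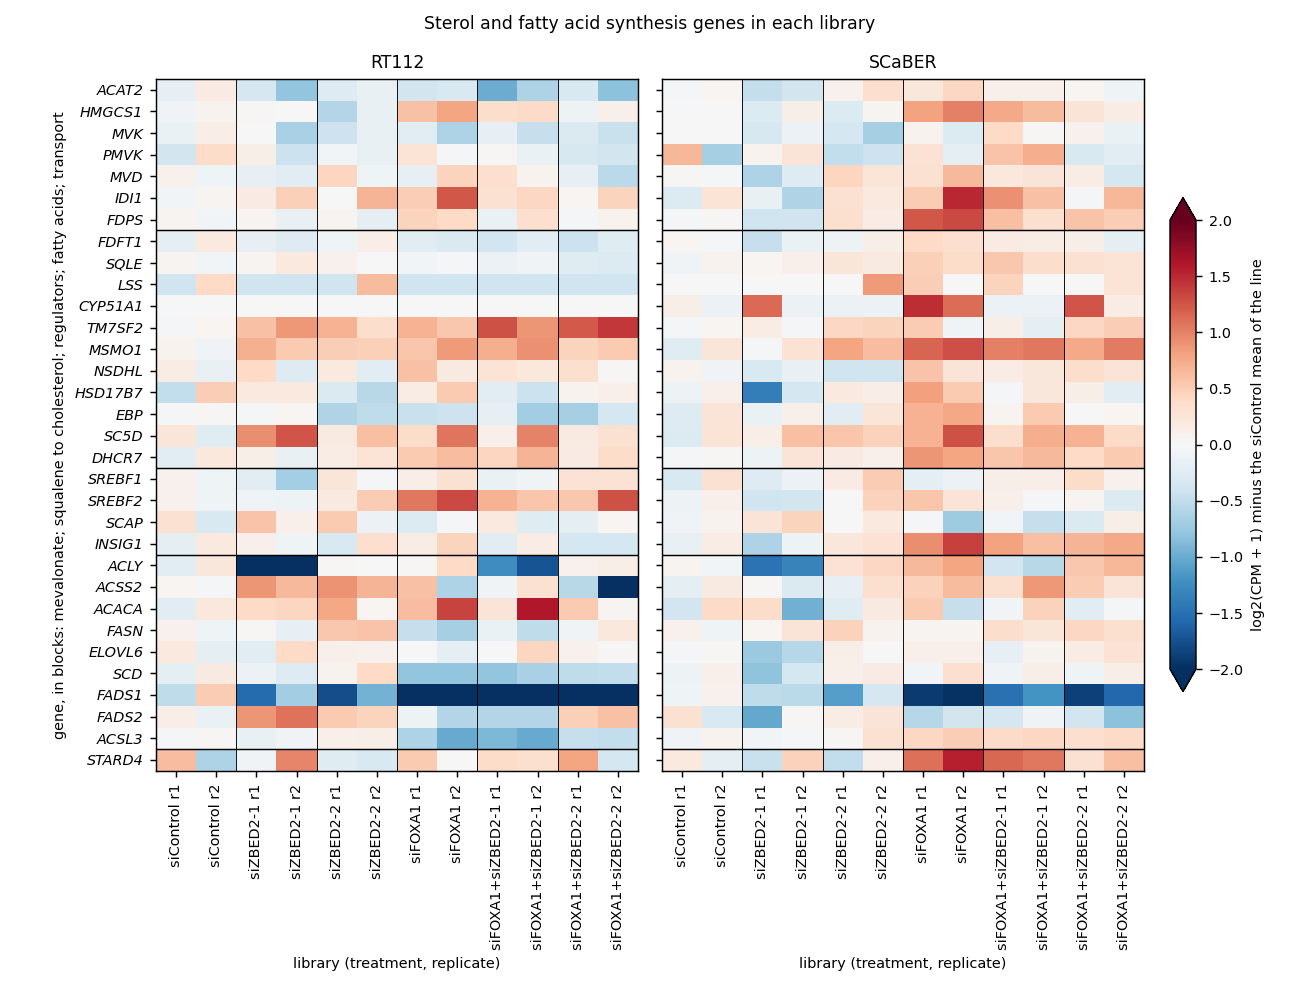
Each cell is log2(CPM + 1) of a gene (rows, in blocks by role) in a library (columns, r1 and r2 for the replicates) minus the siControl mean of that line, with red above and blue below and the colour scale ending at 2 in either direction. In SCaBER most sterol rows are red in the 6 libraries with siFOXA1, in both lines the FADS1 row is blue there and the ACLY row is blue in the libraries with siZBED2-1, and the colours of LSS and CYP51A1 and of STARD4 and FADS2 in RT112 rest on a few reads.

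In SCaBER, siFOXA1 raised sterol transcripts from HMGCS1, at the start of the route, to DHCR7, at its end, and lowered FADS1. Of 30 members tested, 14 were called (46.7%), 13 higher and 1 lower, where 17.8% of all genes were called (8.71% higher and 9.12% lower). The median log2 fold change was 0.43 over the members and -0.02 over all genes. By role, 3 of 7 mevalonate genes, 6 of 9 from squalene to cholesterol, INSIG1 of the 4 regulators, ACLY and ACSL3 of the 9 fatty acid genes, and STARD4 rose. The members' summed share of all counts was 0.362% and 0.381% under siControl and 0.506% and 0.548% under siFOXA1.
HMGCS1 went from 348 and 351 CPM under siControl to 612 and 700.0 under siFOXA1 (log2 fold change 0.91, SE 0.13, adjusted p = 3.16e-06). IDI1, the isomerase that makes the second isoprenoid building block, went from 38.2 and 56.0 to 66.4 and 133 (log2 fold change 1.08, SE 0.26, adjusted p = 0.00227). FDPS, which condenses these blocks into farnesyl diphosphate, went from 225 and 234 to 547 and 575 (log2 fold change 1.29, SE 0.13, adjusted p = 1.66e-09). For all 3 the treated libraries lay above both controls, with FDPS the most even between replicates and IDI1 the least. The IDI1 call was lost without siFOXA1 replicate 2 (0.49, adjusted p = 0.270). The first enzyme, ACAT2, and the kinases and decarboxylase MVK, PMVK and MVD did not pass, with log2 fold changes of 0.32, -0.10, -0.08 and 0.50.

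Beyond squalene, all 9 SCaBER genes tested had a positive estimate. MSMO1, the sterol methyl oxidase, had 79.3 and 112 CPM under siControl and 212 and 231 under siFOXA1 (log2 fold change 1.21, SE 0.16, adjusted p = 9.01e-07). DHCR7 went from 324 and 337 to 610.4 and 574 (log2 fold change 0.84, SE 0.12, adjusted p = 3.21e-06). SQLE, the squalene epoxidase that controls entry into the sterol branch, moved less, from 181 and 202 to 267 and 247 (log2 fold change 0.43, SE 0.13, adjusted p = 0.0182). Groups did not overlap for any of these genes. NSDHL, which acts with MSMO1 on the sterol methyl groups, EBP, the sterol isomerase, and SC5D, the desaturase before DHCR7, rose by 0.43, 0.72 and 1.02 on the log2 scale. FDFT1 (squalene synthase), HSD17B7 and TM7SF2 had values of 0.36, 0.70 and 0.26 and did not pass. With the replicate number as a block, FDFT1 passed as well (adjusted p = 0.0438). The calls of SQLE and NSDHL were lost without the first siControl or the first siFOXA1 library, and NSDHL also without the second siControl library, EBP without the first siControl library, and SC5D without the first siControl or the second siFOXA1 library. Without the first siControl library fewer members were called, and the change over all genes is not given here.

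Among the regulators, the sterol sensor INSIG1 went from 178 and 217 CPM to 376 and 511 in SCaBER (log2 fold change 1.16, SE 0.15, adjusted p = 7.20e-07). SREBF2 had 60.9 and 69.7 CPM under siControl and 95.9 and 78.1 under siFOXA1 (log2 fold change 0.41, SE 0.19, adjusted p = 0.146). SREBF1 had 25.6 and 39.8 CPM under siControl and 28.1 and 29.4 under siFOXA1 (log2 fold change -0.19, SE 0.26, adjusted p = 0.698). Neither SREBP gene passed the test although the SREBF2 libraries did not overlap, and SCAP overlapped between groups. STARD4 rose from 32.4 and 24.3 to 61.3 and 84.7 (log2 fold change 1.36, SE 0.27, adjusted p = 2.84e-04).
In the fatty acid arm of SCaBER, ACLY rose from 213 and 199 to 322 and 357 CPM (log2 fold change 0.72, SE 0.13, adjusted p = 9.97e-05). ACSL3 rose from 197 and 218 to 278 and 293 (log2 fold change 0.46, SE 0.13, adjusted p = 0.0107). Both changes left the groups apart, but the ACSL3 call was lost without the first siControl or the second siFOXA1 library. FASN had 251 and 225 CPM under siControl and 248 and 247 under siFOXA1 (log2 fold change 0.05, SE 0.13, adjusted p = 0.848). SCD had 312 and 363 CPM under siControl and 323 and 423 under siFOXA1 (log2 fold change 0.14, SE 0.14, adjusted p = 0.567). Both overlapped between the groups, and ACSS2, ACACA, ELOVL6 and FADS2 did not pass. FADS1 fell from 202 and 228 to 56.4 and 53.9 CPM (log2 fold change -1.96, SE 0.19, adjusted p = 1.66e-09), with both treated libraries far below both controls.

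**Figure D2:**
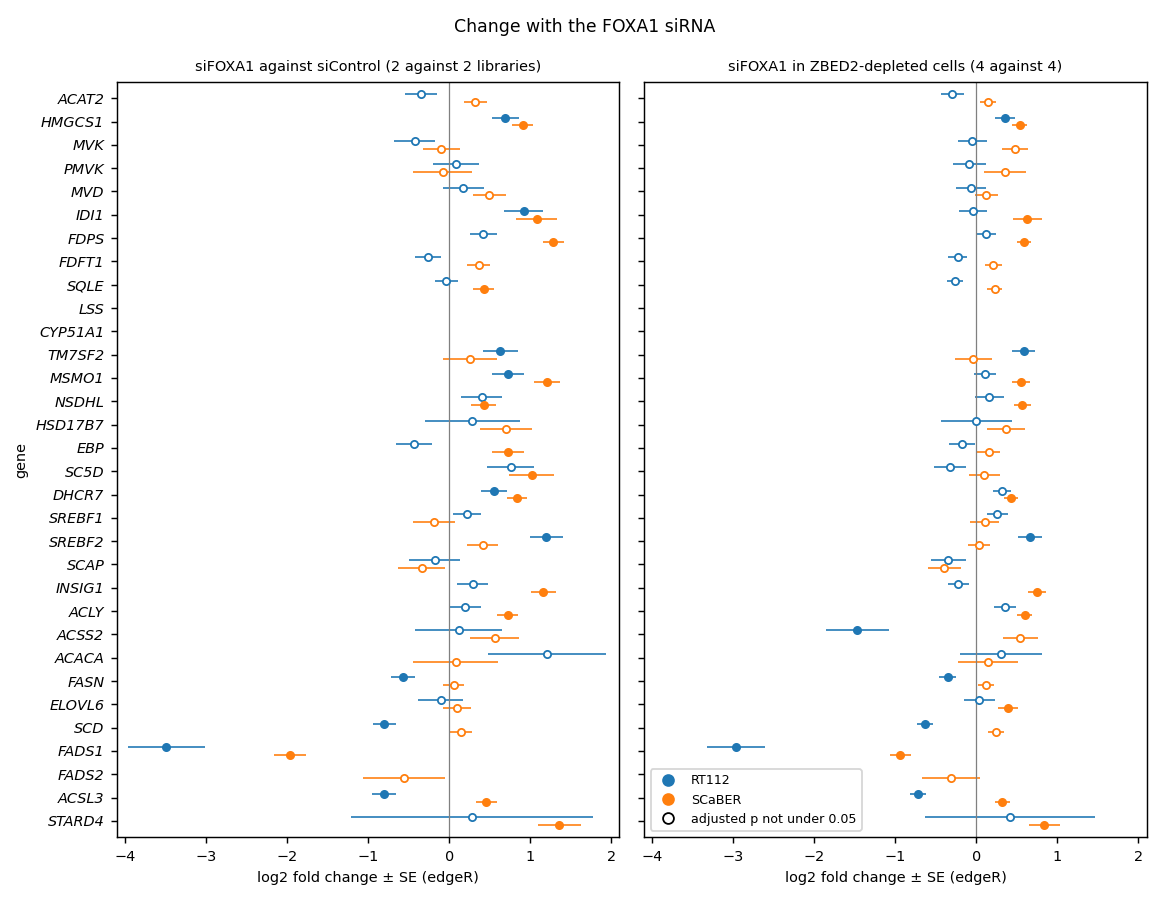
Points are edgeR log2 fold changes with their standard errors for each member (rows) in RT112 (blue) and SCaBER (orange), from siControl to siFOXA1 in the left panel and from the siZBED2 libraries to the double knock-downs in the right panel, filled where the adjusted p was under 0.05. Most orange points of the sterol genes lie right of 0 in both panels, FADS1 lies far left in both lines, and SCD and ACSL3 lie left of 0 in RT112 alone.

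In RT112 the response to siFOXA1 was split between the arms. Of 29 members tested, 10 were called (34.5%), with 6 sterol genes and regulators higher and 4 fatty acid genes lower, where 23.3% of all genes were called (11.3% higher and 11.9% lower). The median was 0.20 on the log2 scale over the members and -0.01 over all genes. The same median was 0.40 over the 9 genes from squalene to cholesterol and -0.34 over the 8 fatty acid genes. No member of the sterol branches was called lower and none of the fatty acid genes higher. The members' summed share of all counts was 0.315% and 0.367% under siControl and 0.297% and 0.306% under siFOXA1.
HMGCS1 had 107 and 118 CPM under siControl and 169.7 and 195 under siFOXA1 (log2 fold change 0.69, SE 0.17, adjusted p = 0.00363). IDI1 went from 50.7 and 55.0 to 74.3 and 126 (log2 fold change 0.92, SE 0.25, adjusted p = 0.00724). MSMO1 went from 50.7 and 45.4 to 71.1 and 87.8 (log2 fold change 0.73, SE 0.19, adjusted p = 0.00763). These groups did not overlap, yet each call was lost without siFOXA1 replicate 2, where IDI1 dropped to 0.49, adjusted p = 0.259, and that of MSMO1 also without siControl replicate 2. DHCR7 (0.56) and TM7SF2 (0.63) rose as well. The DHCR7 call was lost without the first siControl or the second siFOXA1 library and the TM7SF2 call whichever of the 4 libraries was left out, and neither passed on unscaled library sizes. Without siFOXA1 replicate 2 fewer members of RT112 were called, and the change over all genes is not given here. SQLE overlapped in RT112, with 175 and 164 CPM under siControl and 164 and 167 under siFOXA1 (log2 fold change -0.04, SE 0.14, adjusted p = 0.900). FDPS had 153 and 143 CPM under siControl and 201 and 196 under siFOXA1 (log2 fold change 0.42, SE 0.16, adjusted p = 0.0639), and with the replicate block FDPS and SC5D passed (adjusted p = 0.0441 and 0.0370).

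SREBF2 was the regulator that changed in RT112, from 66.9 and 58.8 CPM to 131 and 158 (log2 fold change 1.20, SE 0.21, adjusted p = 1.19e-04). INSIG1 overlapped at 145 and 189.9 against 184 and 227 (0.29, SE 0.19, adjusted p = 0.295), and SREBF1 had 121 and 109 under siControl and 126 and 142 under siFOXA1 (0.22, SE 0.17, adjusted p = 0.396). The called regulator was SREBF2 in RT112 and INSIG1 in SCaBER, although neither gene's response passed the test of a difference between the lines (SREBF2 0.78, SE 0.30, adjusted p = 0.174, and INSIG1 -0.88, SE 0.27, adjusted p = 0.0737). With the replicate block the INSIG1 difference passed (adjusted p = 0.0210).
Of the 8 fatty acid genes tested in RT112, 4 fell. FADS1 fell from 31.6 and 64.3 CPM to 5.02 and 3.43 (log2 fold change -3.49, SE 0.48, adjusted p = 6.01e-06). SCD fell from 634 and 813 to 417 and 414 (log2 fold change -0.80, SE 0.14, adjusted p = 1.18e-04), and ACSL3 from 275 and 284 to 182 and 138 (log2 fold change -0.80, SE 0.15, adjusted p = 2.07e-04). For these genes and SREBF2 the call held whichever library of the comparison was left out. FASN fell from 369.7 and 329.9 to 254 and 219 (log2 fold change -0.57, SE 0.15, adjusted p = 0.00619), a call lost without siControl replicate 1 or siFOXA1 replicate 2. ACLY, at 119 and 165 against 142 and 185 CPM, overlapped (0.20, SE 0.19, adjusted p = 0.489), and ACSS2, ACACA and ELOVL6 did not pass.

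**Figure D3:**
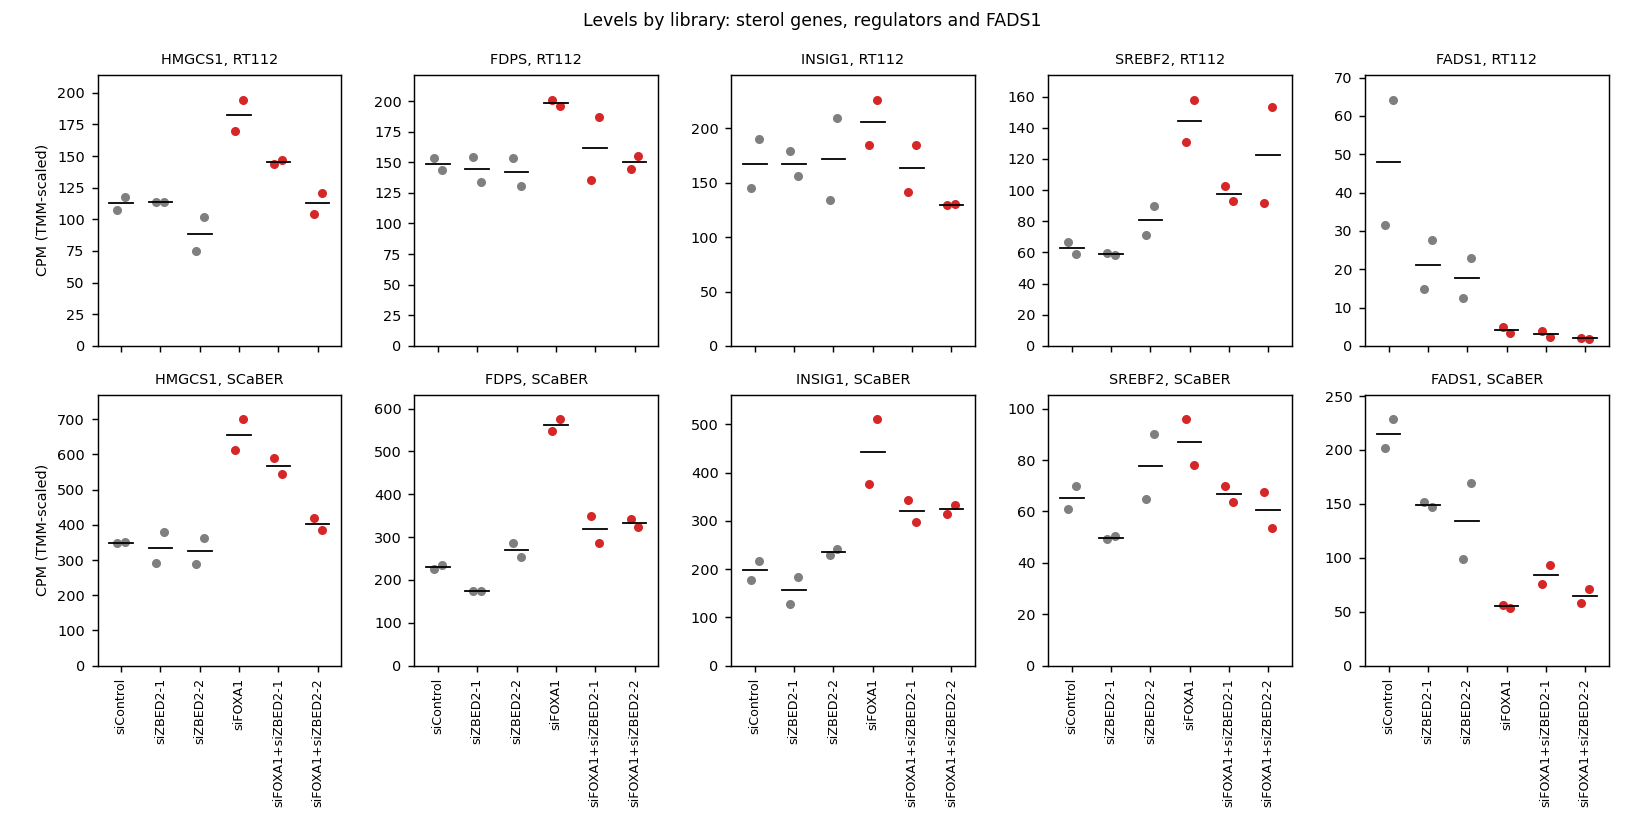
CPM of 5 genes (columns) in RT112 (top) and SCaBER (bottom), with a point per library and a line at the mean of the 2 libraries, grey without and red with siFOXA1, and vertical axes from 0 that differ between panels. In SCaBER the red points of HMGCS1, FDPS and INSIG1 under siFOXA1 alone stand above those of the other treatments, and FADS1 is lowest in the red groups of both lines.

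The same question was asked a second time in cells that also carried a ZBED2 siRNA, comparing the 4 double knock-down libraries of a line with its 4 siZBED2 libraries. No library of this comparison takes part in siFOXA1 against siControl. In SCaBER 12 of 30 members were called (40%), 11 higher and 1 lower, where 10.1% of all genes were called (5.24% higher and 4.9% lower). HMGCS1, IDI1, FDPS, MSMO1, NSDHL, DHCR7, INSIG1, ACLY, ACSL3 and STARD4 were called higher and FADS1 lower in both comparisons, which is 11 of the 14 called under siFOXA1 alone and 11 of these 12. All 14 kept their sign. How often genes outside the members kept a call or a sign between these comparisons was not counted, so this is not shown to be particular to the members. ELOVL6 was called higher here (0.39), with overlapping groups. INSIG1 had 128 and 184 CPM under siZBED2-1 and 229 and 241 under siZBED2-2, and in the double knock-downs 344 and 298 with siZBED2-1 and 315 and 332 with siZBED2-2 (log2 fold change 0.75, SE 0.11, adjusted p = 8.17e-06), so the groups did not overlap. HMGCS1 (0.53), NSDHL (0.57), DHCR7 (0.42), ACSL3 (0.32) and FADS1 (-0.94) were likewise apart in all 8 libraries. The IDI1 call was lost without the first siFOXA1+siZBED2-1 library or without the second of siZBED2-1, siZBED2-2 or siFOXA1+siZBED2-2, the ACSL3 call with every left-out library of the 8 but the second siZBED2-2 and the first siFOXA1+siZBED2-2, and the ELOVL6 call with every one but the first siFOXA1+siZBED2-1. Without the second siZBED2-2 library, which kept most of its ZBED2 reads, fewer members were called, and the change over all genes is not given here. With the block, MVK and SCD passed as well (adjusted p = 0.0425 and 0.0364).

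In RT112 8 of 29 members were called (27.6%), 3 higher and 5 lower, where 20.1% of all genes were called (9.88% higher and 10.2% lower). The median log2 fold change was -0.05 over the members, with 12 of 29 positive where 18 were under siFOXA1 alone, and -0.01 over all genes. It was -0.05 over the 7 mevalonate genes, 0.00 over the 9 from squalene to cholesterol and -0.50 over the 8 fatty acid genes, so the sterol medians lay near 0 here and the fatty acid median did not. HMGCS1, TM7SF2 and SREBF2 were called higher and FASN, SCD, FADS1 and ACSL3 lower in both comparisons, 7 of the 10 called under siFOXA1 alone and 7 of these 8. The sign was kept by 9 of the 10, and IDI1, at -0.04 (SE 0.17, adjusted p = 0.904), was the exception. In RT112 too, kept calls and signs were not counted over all genes. SREBF2 (0.66), TM7SF2 (0.58), SCD (-0.64), FADS1 (-2.97) and ACSL3 (-0.72) were apart in all 8 libraries, while HMGCS1 (0.35, SE 0.12, adjusted p = 0.0400) and FASN (-0.36, SE 0.10, adjusted p = 0.0148) overlapped. ACSS2, which makes acetyl-CoA from acetate, was called lower here (-1.47, SE 0.39, adjusted p = 0.00806), with 6.35 and 1.05 CPM under siFOXA1 and siZBED2-2 and 9.33 and 12.3 under siFOXA1 and siZBED2-1. With the block, DHCR7 and ACLY also passed as higher and SQLE as lower (adjusted p = 0.0285, 0.0481 and 0.0499). The HMGCS1 call was lost without the first or second library of siZBED2-1 or of siFOXA1+siZBED2-1, the first of siZBED2-2 or the second of siFOXA1+siZBED2-2, and on unscaled library sizes, and the FASN call without the first siZBED2-1, first siFOXA1+siZBED2-2 or second siFOXA1+siZBED2-1 library.

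Whether a ZBED2 siRNA altered the response to siFOXA1 was tested as an interaction, the response in siZBED2 cells minus that in siControl cells. In SCaBER 2 of 30 members were called (6.67%), against 2.29% of all genes (1.07% higher and 1.21% lower). FDPS responded less in siZBED2 cells (interaction -0.70, SE 0.15, adjusted p = 0.00726): its level was 547 and 575 CPM under siFOXA1, 350.4 and 287 with siZBED2-1 added and 342 and 324 with siZBED2-2 added. FADS1 fell less in siZBED2 cells, which gives the interaction a positive sign (1.03, SE 0.23, adjusted p = 0.00882): its level was 75.4 and 93.6 CPM with siZBED2-1 and 58.2 and 71.3 with siZBED2-2 in the double knock-downs, and without siFOXA1 151 and 147 CPM under siZBED2-1 and 99.1 and 169 under siZBED2-2, and 202 and 228 under siControl. Both calls held whichever library was left out. MSMO1 passed with the block (-0.66, adjusted p = 0.0681 without and 0.0151 with it). In RT112 edgeR called 0 of 29 members, where 0.611% of all genes (0.309% higher and 0.302% lower) were called. An unadjusted p under 0.05 was found for 6 members, and all genes were not counted at that limit. With the block IDI1 was called (adjusted p = 0.0463), DESeq2 called 0 and the fit without a filter on low counts 2.

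The response to siFOXA1 differed between the lines in 4 of 30 members (13.3%), each lower in RT112, against 2.58% of all genes (1.17% higher and 1.41% lower). ACSL3 moved in opposite directions, down in RT112 and up in SCaBER (difference -1.27, SE 0.19, adjusted p = 1.08e-04). FDPS (-0.87, SE 0.20, adjusted p = 0.0127) rose in SCaBER and did not pass in RT112. EBP (-1.16, SE 0.31, adjusted p = 0.0319) had 65.8 and 67.6 CPM under siControl and 48.8 and 49.8 under siFOXA1 in RT112, and 54.5 and 78.9 under siControl and 107 and 113 under siFOXA1 in SCaBER. SCD (-0.95, SE 0.22, adjusted p = 0.0103) fell in RT112 and did not pass in SCaBER. ACSL3 kept its call whichever of the 8 libraries was left out, FDPS lost it without SCaBER siControl replicate 1 or RT112 siFOXA1 replicate 2, SCD without SCaBER siControl replicate 1, SCaBER siFOXA1 replicate 2 or RT112 siControl replicate 2, and EBP with every left-out library but the second SCaBER siControl. With the block FADS1 passed too, as did INSIG1 (adjusted p = 0.0269 and 0.0210). HMGCS1, IDI1, MSMO1 and DHCR7 were called higher and FADS1 lower in both lines, with differences between the lines of -0.22, -0.16, -0.48, -0.29 and -1.54.

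**Figure D4:**
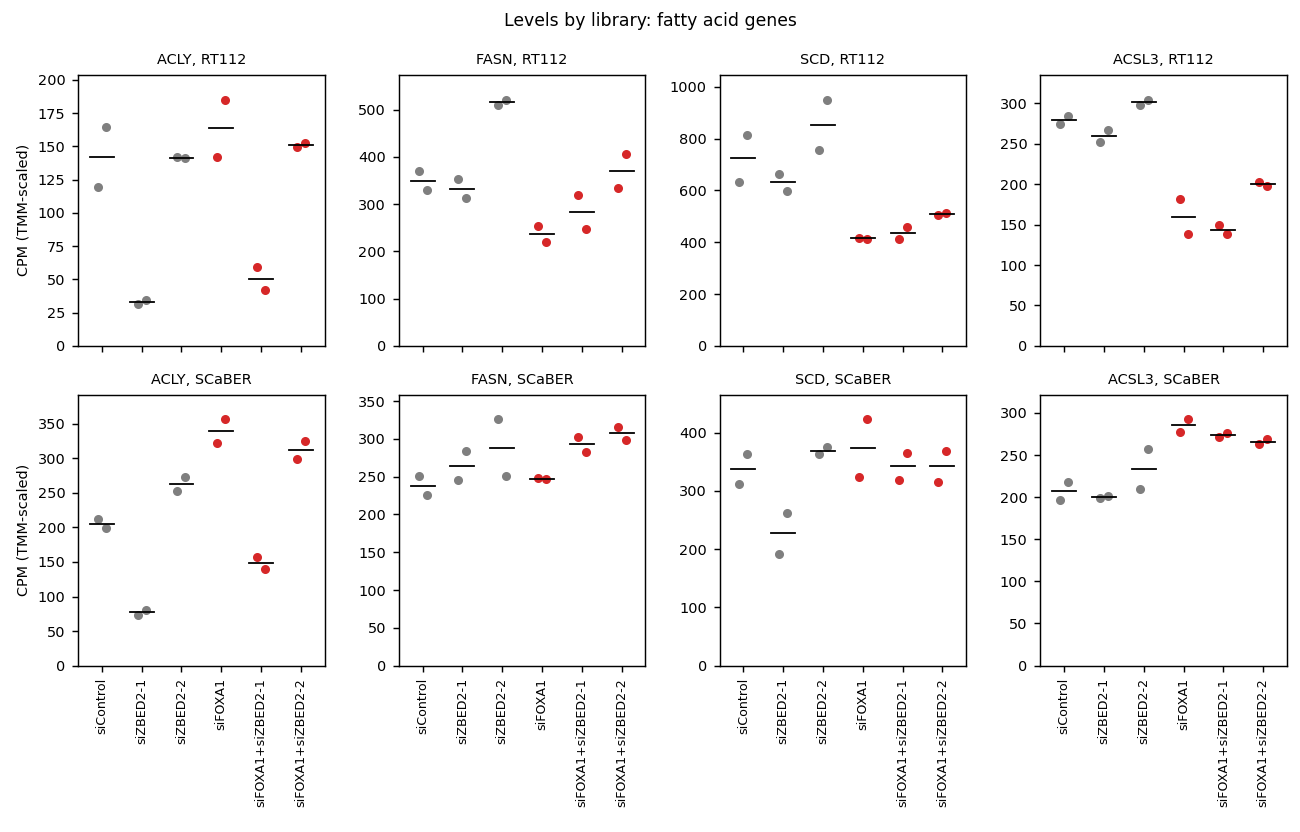
CPM of ACLY, FASN, SCD and ACSL3 (columns) in RT112 (top) and SCaBER (bottom), with a point per library and a line at the mean of the 2 libraries, grey without and red with siFOXA1, and vertical axes from 0 that differ between panels. ACLY is low in the libraries with siZBED2-1 and in no others, and SCD and ACSL3 are lower in the red groups of RT112 but not of SCaBER.

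Among the ZBED2 siRNAs, siZBED2-1 lowered ACLY in both lines and with or without siFOXA1. In RT112 4 of 29 members were called under siZBED2-1 (13.8%), against 8.8% of all genes (4.35% higher and 4.45% lower), and ACLY went from 119 and 165 CPM under siControl to 31.3 and 34.7 (log2 fold change -2.11, SE 0.20, adjusted p = 1.42e-07). In SCaBER 3 of 30 were called (10%), against 4.65% (2.19% higher and 2.45% lower), and ACLY went from 213 and 199 to 73.4 and 81.1 (log2 fold change -1.41, SE 0.14, adjusted p = 1.17e-08). Added to siFOXA1, siZBED2-1 took ACLY from 142 and 185 to 59.0 and 41.8 CPM in RT112 (log2 fold change -1.70, SE 0.20, adjusted p = 1.72e-05) and from 322 and 357 to 157 and 139.7 in SCaBER (log2 fold change -1.19, SE 0.13, adjusted p = 4.43e-07). No library with siZBED2-1 reached the level of any library without it, in either line, and all 4 calls held whichever library was left out.
Under siZBED2-2 ACLY stood at 142 and 141 CPM in RT112 and 252 and 273 in SCaBER, with log2 fold changes of -0.01 (SE 0.19, adjusted p = 1) and 0.35 (SE 0.13, adjusted p = 0.388). Tested directly, a comparison added after these values were seen, siZBED2-1 lay below siZBED2-2, with a log2 difference of -2.10 (SE 0.20, adjusted p = 2.00e-07) in RT112 and -1.77 (SE 0.14, adjusted p = 1.49e-10) in SCaBER, and on the siFOXA1 background of -1.58 (SE 0.20, adjusted p = 5.04e-05) and -1.07 (SE 0.13, adjusted p = 5.98e-06). Without siFOXA1 the siRNAs left unequal ZBED2 reads, as given above. On the siFOXA1 background of RT112 ZBED2 had 9 and 7 reads with siZBED2-1 and 12 and 4 with siZBED2-2, ranges that overlapped. On that background of SCaBER it had 20 and 8 reads with siZBED2-1 and 49 and 57 with siZBED2-2, which did not overlap. In the same RT112 libraries ACLY stood at 59.0 and 41.8 CPM with siZBED2-1 and 149 and 153 with siZBED2-2. What part the loss of ZBED2 has in the ACLY difference was not tested.

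The same direct comparison in SCaBER called 8 of 30 members (26.7%), all lower under siZBED2-1, where 4.01% of all genes were called and 2.4% were lower (1.61% higher). Beside ACLY these were ACAT2, MVD, FDPS, MSMO1, INSIG1, ELOVL6 and SCD. FDPS had 174 and 174 CPM under siZBED2-1 and 287 and 254 under siZBED2-2, difference -0.64 (SE 0.13, adjusted p = 0.00173), and the calls of FDPS and ACLY held whichever library was left out. Without the first siZBED2-1 library the calls of the other 6 were lost. Without the second siZBED2-2 library, which kept most of its ZBED2 reads, those of ACAT2 and INSIG1 were lost, without the first siZBED2-2 library those of MVD, MSMO1 and ELOVL6, and without the second siZBED2-1 library that of ELOVL6. SREBF2 passed with the block only (adjusted p = 0.0300). In RT112 ACLY and FASN were called, both lower under siZBED2-1, 2 of 29 (6.9%) against 7.77% of all genes (3.77% higher and 4% lower). The FASN call was lost without the second siZBED2-1 library, and SREBF1 and SCD passed with the block (adjusted p = 0.0303 and 0.0206). On the siFOXA1 background fewer members were called. In SCaBER these were 2 of 30 (6.67%, against 1.49%, 0.427% higher and 1.07% lower), ACLY as lower and HMGCS1 as higher under siZBED2-1, at 0.50 (SE 0.13, adjusted p = 0.0414), the latter lost whichever of the 4 libraries was left out. FDPS, INSIG1, SCD, ELOVL6, ACAT2, MVD and MSMO1, lower under siZBED2-1 without siFOXA1, did not pass there, with log2 differences of -0.06, -0.01, 0.00, -0.26, 0.12, 0.32 and 0.13. In RT112 ACLY was called and no other member (1 of 29, 3.45%, against 1.79%, 0.641% higher and 1.15% lower).

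**Figure D5:**
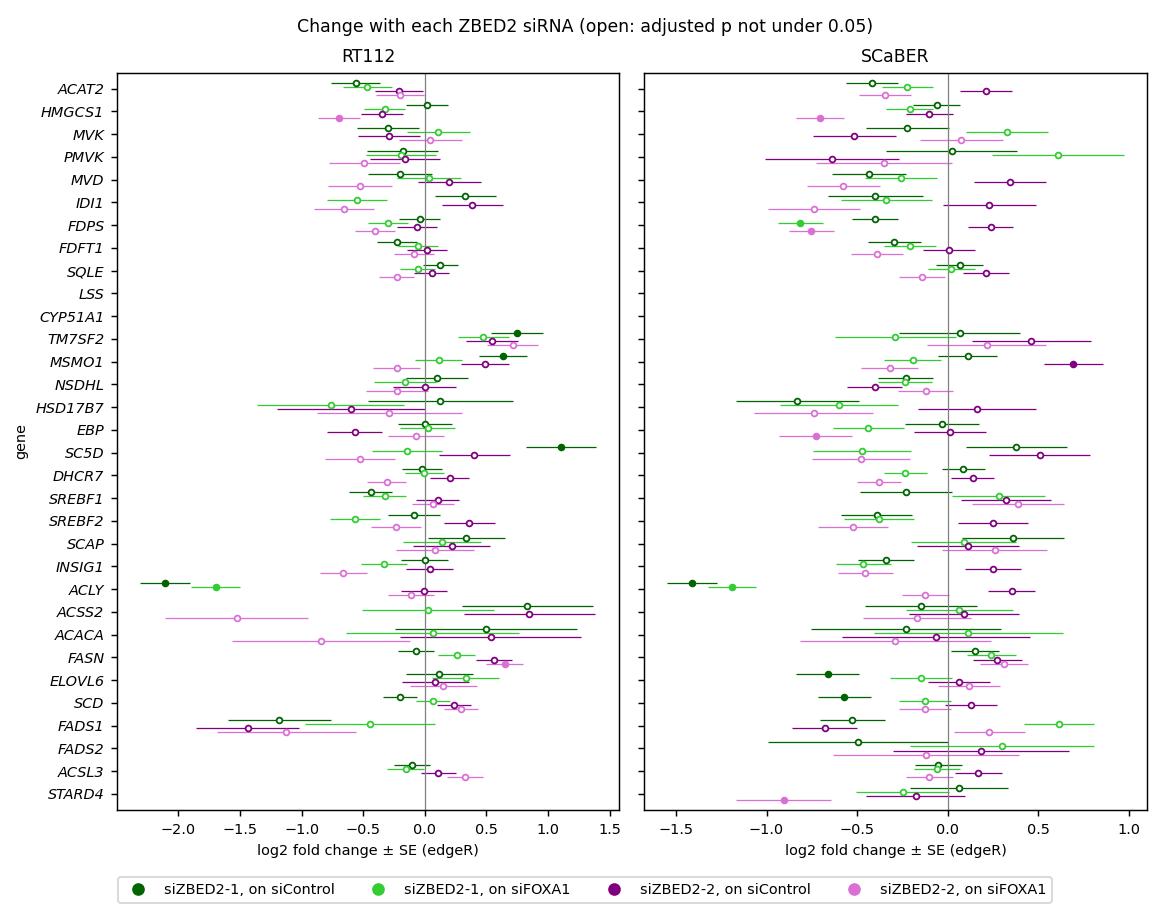
Points are edgeR log2 fold changes with their standard errors for each member (rows) in RT112 (left) and SCaBER (right), for siZBED2-1 (greens) and siZBED2-2 (purples) against siControl or added to siFOXA1, filled where the adjusted p was under 0.05, with values of SE above 1 left out. The green ACLY points lie near or beyond -1 in both lines, whereas its purple points lie near or above 0.

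The other called members under a ZBED2 siRNA were few. In RT112 siZBED2-1 raised TM7SF2 (0.75), MSMO1 (0.63) and SC5D (1.11), and SC5D had 40.4 and 28.8 CPM under siControl and 65.5 and 83.0 under siZBED2-1 (adjusted p = 0.0132). The MSMO1 call was lost whichever of the 4 libraries was left out, that of TM7SF2 with every left-out library but the first siZBED2-1, and that of SC5D without the second siControl or siZBED2-1 library. With the block ACAT2 and FADS1 passed as lower (adjusted p = 0.0448 and 0.0486).
In SCaBER siZBED2-1 lowered ELOVL6 (-0.66) and SCD (-0.57), the first lost whichever of the 4 libraries was left out and the second without the first siZBED2-1 or second siControl library. With the block FDPS and FADS1 passed as lower too (adjusted p = 0.0251 and 0.0317), which made 5 calls.
Under siZBED2-2 edgeR called 0 of 29 members in RT112, where 0.166% of all genes (0.136% higher and 0.0302% lower) were called. There 5 members had an unadjusted p under 0.05, a limit at which all genes were not counted. DESeq2 called 1 member, and the block added FASN as higher (adjusted p = 0.0492). In SCaBER 1 of 30 (3.33%, against 0.625%, 0.427% higher and 0.198% lower) was called, MSMO1, which rose from 79.3 and 112 to 164 and 146 CPM (log2 fold change 0.69, SE 0.16, adjusted p = 0.0304), a call lost without the first siControl or siZBED2-2 library. With the block FADS1 was called lower as a second gene (-0.68, adjusted p = 0.00718).

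Added to siFOXA1 in SCaBER, both ZBED2 siRNAs lowered FDPS, with log2 fold changes of -0.81 (SE 0.12, adjusted p = 7.95e-05) for siZBED2-1 and -0.75 (SE 0.12, adjusted p = 1.87e-04) for siZBED2-2, and both calls held whichever library was left out. With siZBED2-1 2 of 30 members were called (6.67%, against 2.73%, 1.35% higher and 1.39% lower), FDPS and ACLY. With siZBED2-2 4 of 30 were called, all lower (13.3%, against 3.66%, 2.25% higher and 1.41% lower): HMGCS1 went from 612 and 700.0 CPM to 419 and 386 (log2 fold change -0.70, SE 0.13, adjusted p = 7.99e-04), and FDPS, EBP (-0.73) and STARD4 (-0.90) fell as well. The EBP and STARD4 calls were lost without either siFOXA1+siZBED2-2 library or the second siFOXA1 library. With the block the counts were 4 and 7, INSIG1 (lower) and FADS1 (higher) joining for siZBED2-1 (adjusted p = 0.0301 and 0.0260) and IDI1, DHCR7 and INSIG1 (lower) for siZBED2-2 (adjusted p = 0.0441, 0.0232 and 0.0265). The double knock-downs and siFOXA1 alone share their siFOXA1 libraries across these comparisons, and the amount of each siRNA in a mixture is not given in the sources used here.
In RT112 ACLY was the sole call when siZBED2-1 was added (1 of 29, 3.45%, against 2.55%, 1.55% higher and 0.995% lower). Adding siZBED2-2 called HMGCS1 lower, from 169.7 and 195 to 104 and 121 CPM (-0.69, SE 0.17, adjusted p = 0.0403), and FASN higher, from 254 and 219 to 334 and 406 CPM (0.65, SE 0.15, adjusted p = 0.0264), 2 of 29 (6.9%) against 1.25% (0.897% higher and 0.354% lower). The HMGCS1 call was lost without either siFOXA1+siZBED2-2 library or the second siFOXA1 library and the FASN call without the second library of either group, and the block added TM7SF2 as higher and INSIG1 as lower (adjusted p = 0.0469 and 0.0214).

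Beyond the 32 members, 35 other lipid genes were examined, covering elongation, phospholipid precursors, sterol transport, storage and the sterol-sensing receptors. Under siFOXA1 13 of 33 tested were called in RT112 (39.4%), 8 higher and 5 lower, and 8 of 35 in SCaBER (22.9%), 7 higher and 1 lower, against 23.3% and 17.8% of all genes. In siZBED2 cells the corresponding counts were 11 of 33, 6 higher and 5 lower, and 5 of 35, 4 higher and 1 lower, against 20.1% and 10.1%. LPIN1, which makes diacylglycerol, went from 30.9 and 27.7 to 95.4 and 109 CPM in RT112 (log2 fold change 1.80, SE 0.23, adjusted p = 2.04e-06). SCD5, a second stearoyl-CoA desaturase, went from 6.58 and 10.8 to 43.4 and 42.9 (log2 fold change 2.30, SE 0.32, adjusted p = 7.10e-06), while SCD fell in the same libraries. HSD17B12, the ketoreductase of fatty acid elongation, went from 40.1 and 51.7 to 12.9 and 13.7 (log2 fold change -1.79, SE 0.29, adjusted p = 4.91e-05), and LBR, a nuclear membrane protein with sterol reductase activity, from 168 and 198 to 95.0 and 86.7 (log2 fold change -1.01, SE 0.16, adjusted p = 4.95e-05). None of these groups overlapped.
In SCaBER the 4 smallest p-values belonged to HACD3, an elongation dehydratase, which fell (-0.78, SE 0.14, adjusted p = 8.13e-05), and to genes that rose: ACSL4, which activates polyunsaturated fatty acids (0.87, SE 0.17, adjusted p = 2.25e-04), SOAT1, which esterifies cholesterol for storage (1.17, SE 0.24, adjusted p = 6.37e-04), and NPC1, which exports cholesterol from lysosomes (1.28, SE 0.29, adjusted p = 0.00149). NPC1 and SOAT1 also rose in RT112 (1.55 and 0.91) and HACD3 also fell there (-0.65).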

How the data were processed

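RNA of RT112 and SCaBER cells, 24 libraries in 12 groups of 2, was sequenced after 3′ library preparation primed at the poly-A tail. The authors deposited raw counts, whole numbers of reads per gene. According to the settings deposited with them, the authors aligned the reads with STAR 2.6.1a to hg38, after TrimGalore 0.6.2 had removed bases under quality 20 and reads shorter than 10 bases, and counted them on GENCODE release 29. The methods of the study name hg19 instead, and the deposited settings were followed. Poly-A trimming and molecular identifiers are not given in the sources used here. PCR copies are therefore counted as reads, and genes that share sequence can lose them. Deposited TPM values, which scale by gene length, were not used because 3′ reads do not grow with length.

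Groups and replicate numbers came from the labels, where the replicate number is that of an experimental batch. The main fits used no pairing. Libraries of the same number were taken as paired only in the alternative with the replicate number as a block. Over all genes tested, deviations of equal numbers from their group means correlated at a mean of 0.0400 in RT112 and 0.0328 in SCaBER. There 0 of 15 pairs of groups in either line exceeded 0.1. Over the tested members alone the mean was 0.090 in RT112 and 0.0039 in SCaBER, and 6 and 7 of the 15 pairs exceeded 0.1. Nothing states separate cultures, so p-values measure the spread between these libraries, which may be technical.

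Counts were tested with the quasi-likelihood F-test of edgeR 4.0.16 in R 4.3.3, with TMM scaling and filterByExpr (minimum count 10, minimum total 15). The 12 libraries of a line shared a fit of 13264 genes in RT112 and 13129 in SCaBER, with a biological coefficient of variation of 25.8% and 21.6%. Differences between the lines came from a fit of all 24 libraries and 14823 genes. A gene was called at a Benjamini-Hochberg adjusted p under 0.05 over all genes tested. The SE is that of the edgeR coefficient, and CPM use TMM-scaled library sizes of the line.

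The 32 members and the lists of other lipid genes and cell markers were chosen with earlier results of these data known. All members were accounted for by role. Per-library values under siControl and siFOXA1 were given for HMGCS1, SQLE, INSIG1, SREBF1, SREBF2, ACLY, FASN and SCD. Such values were also given for members called in a test of a difference between responses. The same holds for the 3 called members with the smallest p in each direction for each siRNA and line. Exceptions under siZBED2-1 were TM7SF2 and MSMO1 in RT112 and ELOVL6 and SCD in SCaBER, given as log2 fold changes. Of the other lipid genes, the 4 with the smallest p in RT112 had per-library values and the 4 in SCaBER log2 fold changes. Values of further members were added after they were seen. Alternatives were DESeq2 1.42.0, RLE factors, unscaled library sizes, no filter on low counts, the replicate number as a block, and leaving out each library. Gene positions and promoters are from RefSeq on GRCh38.p14.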

Additional observations from a re-analysis of the deposited data

Results flagged for a closer look

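The response of 4 members to siFOXA1 differed between the lines by a direct test, edgeR's quasi-likelihood test of the RT112 response minus the SCaBER response over 24 libraries. The difference was -0.87 on the log2 scale for FDPS, farnesyl diphosphate synthase (SE 0.20, adjusted p = 0.0127), -1.16 for EBP, the sterol isomerase (SE 0.31, adjusted p = 0.0319), -0.95 for SCD, the stearoyl-CoA desaturase (SE 0.22, adjusted p = 0.0103), and -1.27 for ACSL3, the acyl-CoA synthetase (SE 0.19, adjusted p = 1.08e-04). ACSL3 was called in both lines, in opposite directions, with both libraries of each line moving the same way.

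In SCaBER the response of 2 members to siFOXA1 differed between cells with and without a ZBED2 siRNA by the test of the interaction. It was -0.70 (SE 0.15, adjusted p = 0.00726) for FDPS, whose rise was smaller with either ZBED2 siRNA, and 1.03 (SE 0.23, adjusted p = 0.00882) for FADS1, the delta-5 desaturase, whose fall was smaller. Groups of 2 libraries do not allow a test for a single library far from the others.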

How the results depend on the processing

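All 84 called member values kept their direction in every alternative run. These values leave out the direct comparisons of siZBED2-1 with siZBED2-2. Those comparisons were rerun with the replicate block and with libraries left out, and under no other alternative. DESeq2, RLE factors and the replicate block kept all 84 calls, unscaled library sizes 75 and no filter on low counts 81, and of 448 values with a library left out 351 kept the call. The block changed no call other than those given with the results. Unscaled library sizes moved the median of all genes by up to -0.11 on the log2 scale (siFOXA1 in RT112). The share of all genes called in an alternative is not given beside the counts of called members, here or in the results. A change particular to the members is therefore not shown. The following counts of called members moved, and the cause was not tested. Under DESeq2 they were 1 for siZBED2-2 and 4 for siZBED2-2 added to siFOXA1 in RT112, 5 for siZBED2-1, 2 for siZBED2-2 and 4 for the interaction in SCaBER, and 7 for the difference between the lines. With the replicate block they were 1, 4 and 1 for siZBED2-2, siZBED2-2 added to siFOXA1 and the interaction in RT112, and 5, 2, 4 and 7 for siZBED2-1, siZBED2-2, siZBED2-1 added to siFOXA1 and siZBED2-2 added to siFOXA1 in SCaBER. Without a filter they were 1 for siZBED2-2 and 2 for the interaction in RT112, and 2 for siZBED2-2 and 4 for siZBED2-1 added to siFOXA1 in SCaBER. On unscaled library sizes the count was 1 for siZBED2-2 added to siFOXA1 in RT112.

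With each library left out in turn, the counts of called members ranged in RT112 from 4 to 10 for siFOXA1, 7 to 9 for siFOXA1 in siZBED2 cells, 1 to 4 for siZBED2-1, 0 to 0 for siZBED2-2, 1 to 2 for siZBED2-1 added to siFOXA1, 0 to 4 for siZBED2-2 added to siFOXA1 and 0 to 2 for the interaction. In SCaBER the same ranges were 9 to 13, 9 to 11, 1 to 2, 0 to 2, 2 to 3, 2 to 6 and 2 to 4. They were 15 to 15 for the lines under siControl and 1 to 5 for the difference between the lines. Where a group was left with 1 library, its spread was taken from the other groups of the fit. With 2 libraries per group, small changes of STARD4 and FADS2 in RT112, at a few CPM, were not detectable at this depth, and LSS and CYP51A1, with few or no reads, were not tested.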
